A study of Mus musculus with 6 samples.

Results

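The secreted Wnt antagonists are a group of extracellular proteins named here as *Dkk1*, *Dkk2*, *Dkk3*, *Dkkl1*, *Sfrp1*, *Sfrp2*, *Sfrp4*, *Sfrp5*, *Frzb* and *Wif1*. They were picked by gene symbol from the RNA-Seq table of ATF3-induced mammary tumors. Of these 10 genes, 9 were measured among the 15280 genes of the table, 4 of the Dickkopf family, 4 of the secreted Frizzled-related family and *Wif1*, and *Sfrp5* was not analysed here. The tumors (T) were compared with the matched normal glands (M) of the same animals, with n = 3 mice for each tissue and the libraries T11035, T11640, T9232, M11035, M11640 and M9232. All mice were parous BK5.ATF3 transgenic females that had raised 1 litter, and their tumors, which arose at 6 to 12 months, were taken at 1.5 cm. The BK5 promoter, from the bovine keratin 5 gene, drives the *ATF3* transgene in basal epithelial cells. The normal glands carry it too, and no wild-type mouse enters the comparison.

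Wnt ligands bind Frizzled receptors together with the co-receptors Lrp5 and Lrp6, and this stabilizes β-catenin, which then works with TCF/LEF factors in the nucleus. The antagonists act outside the cell in different ways. Dickkopf proteins such as Dkk1 bind the co-receptors, with the Kremen proteins as partners, whereas secreted Frizzled-related proteins and Wif1 bind the Wnt ligands themselves. For Dkk3, binding to Lrp6 is not established. In the mammary gland and in skin, Wnt signaling is known for its role in basal stem cells and in the development of the gland and of hair follicles.

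The libraries held from 4750989 to 7806908 fragments on genes. Levels are given in CPM, fragments scaled to edgeR's effective library size, where a floor of 3 fragments corresponds to between 0.393 and 0.610 CPM; floors cover counting error only. *Atf3* itself had 4.47, 8.09 and 22.6 CPM in M11035, M11640 and M9232 and 13.4, 18.3 and 19.3 CPM in T11035, T11640 and T9232, and this difference of 0.80 on the log2 scale was not called (limma, adjusted p = 0.22). Whether transcripts of the transgene were counted on the mouse gene was not tested. *Krt5*, the mouse gene for keratin 5, rose by 5.48 on the log2 scale (limma, adjusted p = 2.02e-05), from 24.6 ± 13.3 to 986 ± 71.1 CPM (SD, n = 3), and all 6 basal epithelial markers were upregulated. The normal glands differed in markers of skeletal muscle and in a milk gene of the mammary epithelium. The 8 skeletal muscle markers summed to 16003 CPM in M11035, 5594 in M11640 and 376 in M9232, and *Csn2*, a milk casein, had 506, 670 and 14121 CPM in these glands. In bulk tissue, fewer cells of a type and less RNA per cell cannot be told apart.

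Of the 9 antagonists, 6 rose in the tumors and 0 fell. *Dkk1*, *Dkk2*, *Dkk3*, *Wif1*, *Frzb* and *Sfrp2* were upregulated DEGs, meaning an FDR of at most 0.05 and a fold change (FC) of at least 2, whereas *Sfrp1*, *Sfrp4* and *Dkkl1* were not called. Among all 15280 genes, 14.5% were upregulated DEGs and 13.7% were downregulated DEGs. In the same 6 antagonists the 3 tumors lay above the 3 glands without overlap, as they did in 27.6% of all genes, and 0 antagonists lay wholly below, against 26.3% of all genes. The median log2 fold change was 2.26 over the 9 antagonists and -0.00 over all genes. Tumors and glands were compared by limma's moderated test on log2(CPM + 0.5), two-sided and adjusted over all genes. For a single gene, permuting 3 against 3 libraries exactly gives no p under 0.1, and every call here therefore uses the spread that limma pools over genes.

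**Figure D1:**
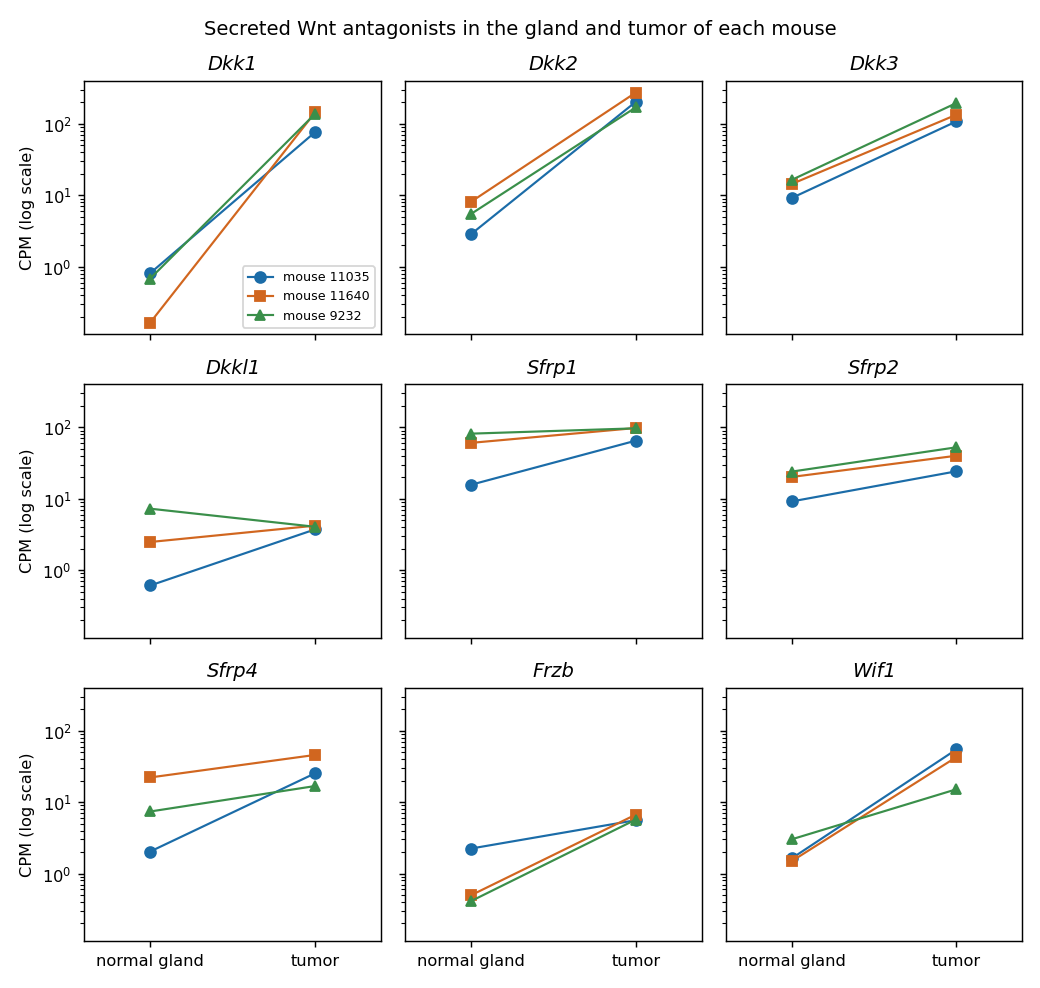
CPM (log scale) of each of the 9 antagonists in the normal gland and the tumor, with 1 line per mouse. The lines of 8 of the 9 genes rise in all 3 mice, and that of *Dkkl1* falls in the pair M9232 and T9232. The share of all genes that rise in all 3 mice was not counted.

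RefSeq promoter windows, 250 bases before to 50 after the start (build GRCm38.p6), were at hand for 6 of the 9 antagonists, which were *Dkk1*, *Dkk2*, *Wif1*, *Frzb*, *Sfrp2* and *Dkkl1*. They were searched on both strands for a TATA box, spelled TATAAA. The other motifs searched were a core TCF/LEF motif, spelled ATCAAAG, the AP-1 motif of Fos and Jun proteins, spelled TGANTCA, and the CRE that ATF proteins can bind, spelled TGACGTCA. The letters TATAAA, at any place and on either strand, were in 3 of 6 windows, those of *Dkk1*, *Dkk2* and *Wif1*. They were in 13.6% of all 32851 windows of this length. Counted from the start, the match began at base -54 in *Dkk1* and at base -32 in *Dkk2*, and in *Wif1* it lay on the opposite strand at base -232. The other motifs were in 0 of 6 windows, against 3.73% of all windows for TCF/LEF, 7.81% for AP-1 and 1.79% for CRE, which says only that these letters are not in these windows. Whether any of these matches works as a TATA box was not tested. Stretches of 30 bases around the match are shown for these 3 genes. They are written 5′ to 3′ along the gene, with the match in capitals, and each had 1 exact match on its chromosome in mm9, at chr19:30624023-30624052 (minus strand), chr3:131748212-131748241 (plus strand) and chr10:120470816-120470845 (plus strand).
Dkk1: tgggagcctgagTATAAAggcagccagagg
Dkk2: actgaggaaagcTATAAAaagctaagaggg
Wif1: tttgtttgtttgTTTATAgcaccccggcca
The stretches of *Dkk2* and *Wif1* lie before the first annotated base of the gene on mm9 as well, while that of *Dkk1* lies within the longer gene model given there.

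*Dkk1* encodes the classical Dickkopf inhibitor of Lrp5 and Lrp6 and is known as a target gene of β-catenin. It lies on the minus strand of chromosome 19, from 30620353 to 30624155 on mm9. It had 0.813, 0.165 and 0.684 CPM in M11035, M11640 and M9232, which rest on 10 fragments in all, and 76.7, 145 and 138 CPM in T11035, T11640 and T9232. The transcript was thus close to the floor in every gland and well above it in every tumor. *Dkk1* rose by 6.84 ± 0.34 (SE) on the log2 scale (limma, adjusted p = 3.42e-06), which placed it at rank 53 of all genes from the top. With gland counts this low the size depended on the pseudocount, and was 7.65 at a pseudocount of 0.1 and 6.25 at 1.

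*Dkk2* encodes a Dickkopf protein that can inhibit or, depending on the cell, activate signaling through Lrp6. It is located on chromosome 3 (131748256 to 131843257, plus strand). Glands M11035, M11640 and M9232 had 2.85, 8.09 and 5.47 CPM and their matched tumors 204, 275 and 170 CPM. The rise was 5.26 ± 0.34 (SE) on the log2 scale (limma, adjusted p = 1.11e-05), and the ratio of the mean CPM was 39.5. The 3 tumors were close to each other, with a 1.61-fold range between the highest and the lowest.

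*Dkk3* encodes a divergent Dickkopf protein for which binding to Lrp6 is not established. On chromosome 7 (119259533 to 119302571, minus strand), it had 9.15, 14.4 and 16.4 CPM in glands M11035, M11640 and M9232, against 108, 135 and 196 CPM in the matched tumors. Every tumor lay far above every gland. *Dkk3* rose by 3.41 ± 0.28 (SE) on the log2 scale (limma, adjusted p = 3.55e-05), with differences of 3.50, 3.18 and 3.54 in the 3 mice. Of the 9 antagonists, *Dkk3* had the smallest standard error of the difference.

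*Dkkl1* encodes a Dickkopf-like protein known mainly from the testis. It lies on chromosome 7, from 52462895 to 52467253 on the minus strand. It had 0.610, 2.48 and 7.25 CPM in glands M11035, M11640 and M9232 and 3.72, 4.19 and 4.05 CPM in their matched tumors. The tumors were within a 1.13-fold range and lay inside the 11.9-fold range of the glands. Its difference of 0.60 on the log2 scale was not called (95% interval -0.77 to 1.98, limma, adjusted p = 0.45), and without gland M11035 it was -0.10. Without gland M9232, which had the highest level, it was 1.30 and was called (limma, adjusted p = 0.0495, the lowest over all alternatives, where the highest was 0.87).

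*Wif1* encodes the Wnt inhibitory factor, which binds Wnt ligands through its WIF domain. It is on chromosome 10, from 120471016 to 120537706 on the plus strand. It had 1.63, 1.49 and 3.01 CPM in M11035, M11640 and M9232 and 54.7, 42.7 and 15.1 CPM in the matched tumors. The groups did not overlap, but the tumors had the widest range among the 9 antagonists, 3.61-fold. *Wif1* rose by 3.77 ± 0.46 (SE) on the log2 scale (limma, adjusted p = 3.23e-04). The highest gland, M9232, and the lowest tumor, T9232, came from 1 mouse, whose difference was 2.16 on the log2 scale, against 4.70 between T11035 and M11035 and 4.44 between T11640 and M11640.

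The secreted Frizzled-related proteins carry a cysteine-rich domain like that of Frizzled receptors. *Frzb*, which encodes Sfrp3, lies on chromosome 2 (80252127 to 80287782, minus strand). It had 2.24, 0.496 and 0.410 CPM in glands M11035, M11640 and M9232, the last 2 of them at the floor, and 5.58, 6.68 and 5.69 CPM in the matched tumors. It rose by 2.26 ± 0.44 (SE) on the log2 scale (limma, adjusted p = 0.00366), with the smallest difference, 1.15, between T11035 and M11035. Per length, *Frzb* had the lowest mean level of the 9 antagonists in the tumors.

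*Sfrp2* is located on chromosome 3 (83570243 to 83578238, plus strand). Levels were 9.15, 20.2 and 23.9 CPM in M11035, M11640 and M9232 and 24.2, 39.97 and 52.4 CPM in the matched tumors. The lowest tumor was thus only just above the highest gland. The rise of 1.15 ± 0.39 (SE) on the log2 scale passed by a small margin (limma, adjusted p = 0.0434), and the 3 mice had differences of 1.36, 0.97 and 1.12. The call was lost without M11035 (log2 fold change 0.74, adjusted p = 0.10), without M11640 (1.29, adjusted p = 0.0577), without T11640 (1.09, adjusted p = 0.13) and without T9232 (0.90, adjusted p = 0.15, limma in each case), and the adjusted p over all alternatives ran from 0.00251 to 0.15. With the mouse as a block, the adjusted p was 0.00259 (limma).

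*Sfrp4* on chromosome 13 (19714973 to 19724863, plus strand) had 2.03, 22.1 and 7.39 CPM in M11035, M11640 and M9232 and 25.3, 45.7 and 16.8 CPM in the matched tumors. Tumor T9232 was below gland M11640, so the groups overlapped, although the tumor was the higher tissue in each mouse. The difference of 1.84 ± 0.71 (SE) on the log2 scale, with a 95% interval of 0.23 to 3.45, was not called (limma, adjusted p = 0.0667). With the mouse as a block, which compares each tumor with the gland of its own animal, *Sfrp4* was an upregulated DEG (log2 fold change 1.84, adjusted p = 0.0174, limma). Without M11640 it was also called (log2 fold change 2.62, adjusted p = 0.00862, limma). Its adjusted p over all alternatives ran from 0.00862 to 0.22.

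*Sfrp1* had the highest mean level per kb of exon in the glands. The gene, on chromosome 8 from 24521974 to 24560104 (plus strand), had 15.7, 60.5 and 81.4 CPM in M11035, M11640 and M9232 and 64.9, 97.6 and 96.7 CPM in the matched tumors. Gland M9232 was above tumor T11035, and the glands had a 5.20-fold range against 1.50-fold in the tumors. At a difference of 0.98 ± 0.53 (SE) on the log2 scale, with a 95% interval of -0.22 to 2.18, *Sfrp1* was not called (limma, adjusted p = 0.17). With the mouse as a block its adjusted p was 0.0474 (limma), while the fold change stayed under the FC threshold. Its value was 0.27 without M11035 and 1.45, which was called, without M9232 (limma, adjusted p = 0.39 and 0.0444, the highest and the lowest over all alternatives).

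**Figure D2:**
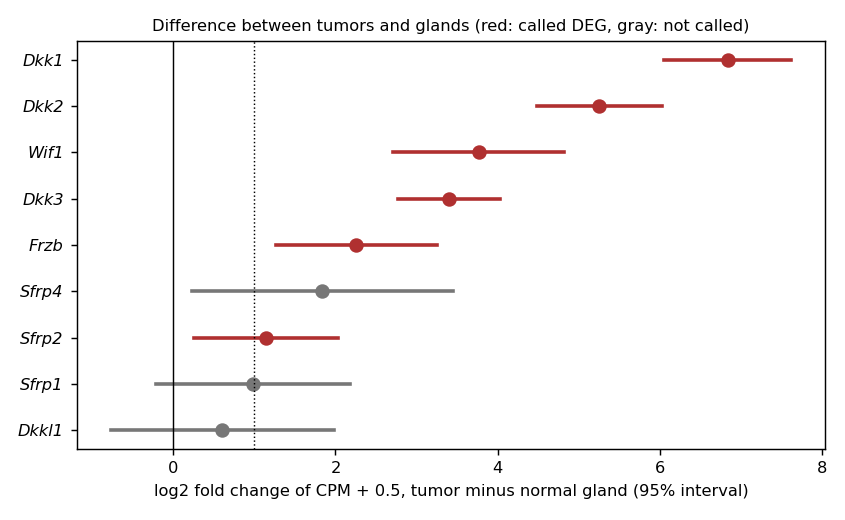
Log2 fold change of each antagonist (points; tumor minus normal gland) with its 95% interval (lines), in order of size, red where called and gray where not. The dotted line marks the FC threshold of 2 (1 on the log2 scale), and the intervals of *Sfrp1* and *Dkkl1* include 0.

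Gland M11035 had the lowest level of *Sfrp1*, *Sfrp2*, *Sfrp4*, *Dkkl1*, *Dkk2* and *Dkk3* among the 3 glands and the highest of *Dkk1* and *Frzb*. It was also the gland with the highest summed skeletal muscle markers (above) and with the lowest sum of the 8 fibroblast markers, 743 CPM against 3190 in M11640 and 1558 in M9232. In the tumors the fibroblast markers summed to between 5558 and 6080 CPM, with 3 of 8 upregulated, 1 downregulated, 4 not called and 0 at zero in either tissue. Their median log2 fold change was 0.64, and *Col1a1* rose most (log2 fold change 4.63, adjusted p = 2.00e-05, limma). Most of the tumor sum came from collagen genes. Mean *Col1a2* went from 241 CPM in the glands to 2912 in the tumors, and mean *Col1a1* from 72.8 to 1636 CPM. The rise of the sum is thus not shared by all fibroblast markers. The 8 hair follicle markers, all upregulated, summed to between 3.96 and 7.93 CPM in the glands, where *Krt35* and *Hoxc13* were at 0, and to between 864 and 1737 CPM in the tumors. Tumor T9232, which had the least *Wif1*, also had the lowest hair follicle sum. The order of the other tumors did not match, since T11035 had the most *Wif1* and a sum of 1053 CPM, against 1737 CPM in T11640. The 8 adipocyte markers were all downregulated, from between 3868 and 7742 CPM in sum in the glands to between 149 and 208 CPM in the tumors, with 0 of them at zero. The part of these cell types in the antagonist levels was not tested.

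Levels of different genes were compared per kb of exon. In the glands the order by mean level was *Sfrp1* (12.0 ± 7.68 CPM per kb, SD, n = 3), *Sfrp2* (8.24 ± 3.57), *Dkk3* (3.97 ± 1.12), *Dkkl1* (3.82 ± 3.79), *Sfrp4* (2.60 ± 2.57), *Dkk2* (1.48 ± 0.710), *Wif1* (0.841 ± 0.347), *Frzb* (0.324 ± 0.318) and *Dkk1* (0.228 ± 0.141). Neighbors in this order differed by less than the larger of their SDs, except *Sfrp2* from *Dkk3* and *Wif1* from *Frzb*. In the tumors *Dkk2* came first with 58.5 ± 14.4 CPM per kb, followed by *Dkk1* with 49.4 ± 15.5 and *Dkk3* with 43.6 ± 13.4, which lie within their SDs of each other. The order of these Dickkopf genes was not the same in every tumor, since *Dkk3* was the highest in T9232 and *Dkk2* in the other tumors. Each of them had at least 31.6 CPM per kb in every tumor, above the highest value of any other antagonist in any tumor, 24.4 CPM per kb for *Sfrp2* in T9232. *Sfrp1* (19.8 ± 4.25), *Sfrp2* (18.1 ± 6.58) and *Wif1* (15.5 ± 8.36) came next and differed by less than their spread. The least abundant were *Sfrp4* (7.23 ± 3.68), *Dkkl1* (4.42 ± 0.267) and *Frzb* (1.85 ± 0.187).

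The make-up of the group therefore differed between the tissues. Per kb, the 9 antagonists summed to 14.2, 38.7 and 47.6 CPM in M11035, M11640 and M9232 and to 179.8, 251 and 225 CPM in the matched tumors. *Dkk1*, *Dkk2* and *Dkk3* took between 14.0% and 27.0% of this sum in the glands and between 66.2% and 71.9% in the tumors. *Sfrp1*, *Sfrp2*, *Sfrp4* and *Frzb* took between 63.5% and 74.4% in the glands and between 18.9% and 23.3% in the tumors. Both shares were separated between the tissues in every library, although the summed level of the secreted Frizzled-related genes was itself higher in every tumor (34.1 to 54.3 CPM per kb) than in any gland (9.02 to 31.7).

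**Figure D3:**
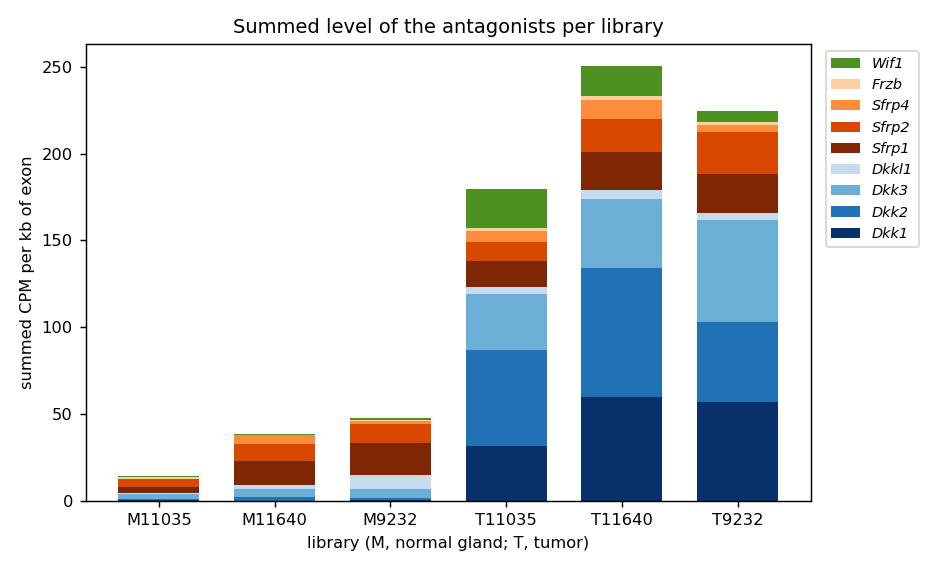
Summed level of the 9 antagonists in each library (bars, CPM per kb of exon), stacked by gene with the Dickkopf family in blue, the secreted Frizzled-related family in orange and *Wif1* in green. The tumors reach 179.8 to 251 CPM per kb and are mostly blue, and the glands reach 14.2 to 47.6 and are mostly orange.

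The other genes of the pathway were taken from lists ordered by their role, and some genes stand on more than 1 list. These lists were chosen with earlier results of these data known. Genes on a list but without a row in the table were not analysed here. Of 19 listed Wnt ligands, 13 were in the table, with 9 upregulated and 1 downregulated (median log2 fold change 2.46). *Wnt6* and *Wnt7a* had the highest fitted log2 fold changes of the ligands. *Wnt6* did not exceed the floor in any gland and had 21.0, 15.3 and 29.8 CPM in T11035, T11640 and T9232 (limma, adjusted p = 1.29e-05). *Wnt7a* had 0 fragments in every gland, and its mean in the tumors was at least 9.80 times the mean floor of the glands. *Wnt5b*, a ligand known mainly for non-canonical signaling, fell by 1.55 on the log2 scale (limma, adjusted p = 0.0117), and *Wnt11* had 0.02 and was not called. Summed per kb, the ligands had between 9.95 and 11.8 CPM in the glands and between 55.0 and 58.5 CPM in the tumors. The ratio of the summed antagonists to the summed ligands was 1.43, 3.28 and 4.50 in M11035, M11640 and M9232, against 3.08, 4.56 and 3.90 in the matched tumors, so the tissues overlapped in this ratio. It compares transcript levels only and does not measure inhibition of the ligands. Its upper sum includes *Dkk2*, whose protein can also activate signaling, and *Dkk3*, for which binding to Lrp6 is not established.

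Of 16 listed Wnt receptors and co-receptors, 15 were in the table, with 8 upregulated and 1 downregulated (median log2 fold change 1.02). *Ptk7* rose (log2 fold change 3.06, adjusted p = 3.82e-05, limma), *Fzd10* did not exceed the floor in the glands and had 5.90 to 6.59 CPM in the tumors, and *Fzd4* fell (log2 fold change -2.61, adjusted p = 1.81e-04, limma). *Fzd7* had a log2 fold change of -0.62 that was not called. The Dickkopf binding partners were split. The Kremen genes, which encode the transmembrane proteins that cooperate with Dickkopf, both rose, whereas the co-receptors were not called. *Kremen1* had 5.29, 8.09 and 8.48 CPM in M11035, M11640 and M9232 and 41.1, 47.2 and 45.7 CPM in the tumors (log2 fold change 2.56, adjusted p = 4.42e-05, limma). *Kremen2* had 1.42, 0.661 and 1.09 CPM in the glands and 8.75, 5.50 and 5.25 CPM in the tumors (log2 fold change 2.16, adjusted p = 0.00101, limma). *Lrp5*, at 14.9 ± 1.33 CPM in the glands and 21.4 ± 0.415 in the tumors, had a log2 fold change of 0.51, under the FC threshold (adjusted p = 0.0414, limma). *Lrp6*, at 289 ± 45.6 and 240.2 ± 8.45 CPM, had one of -0.26 (adjusted p = 0.20, limma). Without overlap, the 3 tumors lay above the 3 glands in *Lrp5* and below them in *Lrp6*, as in 27.6% and 26.3% of all genes.

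Of 11 other extracellular inhibitors of the pathway listed, only 5 were in the table, with 4 upregulated and 0 downregulated (median 2.66). *Apcdd1*, a membrane-bound inhibitor, rose by 3.39 on the log2 scale (limma, adjusted p = 2.29e-05). *Notum*, an enzyme that removes the lipid from Wnt proteins, did not exceed the floor in the glands and had 1.95 to 5.37 CPM in the tumors (limma, adjusted p = 0.00129), and *Igfbp4* rose by 1.32 on the log2 scale (adjusted p = 0.00759, limma). *Sostdc1* had a log2 fold change of 0.72 and was not called. A list of 9 genes held the R-spondins and their receptors and ubiquitin ligases, which set the amount of Frizzled at the membrane. Of these, 8 were in the table, with 5 upregulated and 1 downregulated (median 2.06). *Lgr5* (log2 fold change 2.98) and *Lgr6* (2.46) rose most (adjusted p = 5.37e-05 and 0.0052, limma), and *Lgr4* had 0.57 and was not called. *Rspo1* had 0.813, 2.48 and 5.47 CPM in M11035, M11640 and M9232 and did not exceed the floor in any tumor. It was a downregulated DEG (limma, adjusted p = 0.0147) and lost its call without T11640 (limma, adjusted p = 0.0563).

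Of 6 genes for secretion and carriage of Wnt proteins, 3 were upregulated and 0 downregulated (median 1.52). *Sdc1*, a cell surface proteoglycan, and *Porcn*, which adds the lipid to Wnt proteins, rose by 3.66 and 2.20 on the log2 scale (limma, adjusted p = 1.48e-05 and 5.50e-04). *Gpc4* (0.78) and *Gpc6* (-0.63) stayed under the FC threshold. Of 12 genes known as feedback or target genes of β-catenin, 10 were upregulated and 1 downregulated (median 2.49), led by *Nkd2* with a log2 fold change of 3.61 and *Apcdd1* (adjusted p = 5.92e-06 for *Nkd2*, limma). *Tcf7* fell by 1.34 on the log2 scale (limma, adjusted p = 0.0221), which lost its call without M11035, T11035 or T9232 (-0.92, -1.34 and -1.10), and *Lef1* had -0.63, or -0.025 without M11035, and was not called. *Tcf7* and *Lef1* are also genes of T cells, and all 6 B and T cell markers were downregulated, from between 201 and 511 CPM in sum in the glands to between 10.4 and 15.3 CPM in the tumors, with 0 of them at zero. Their part in these values was not tested.

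**Figure D4:**
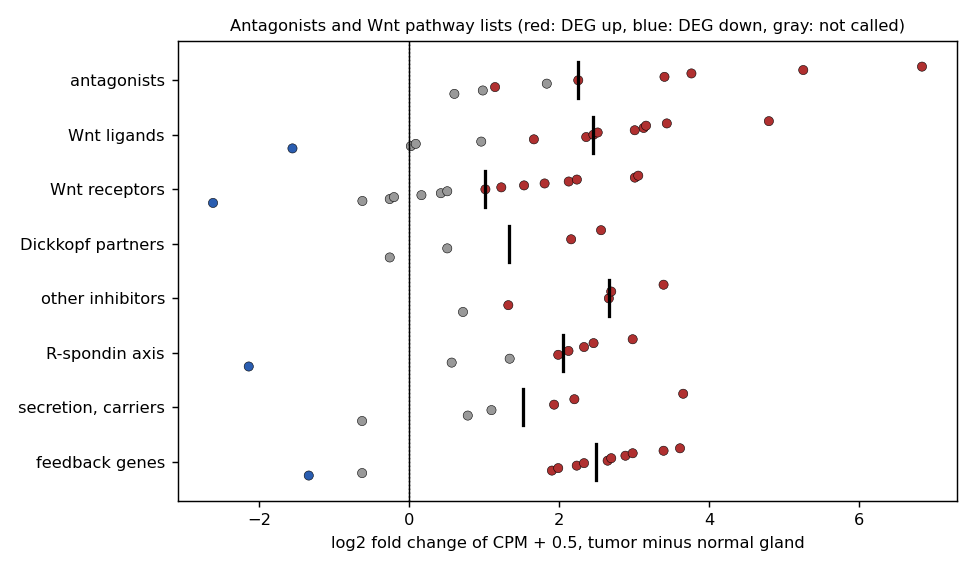
Log2 fold change (tumor minus normal gland) of the 9 antagonists and of each gene on the Wnt pathway lists (points; red, upregulated; blue, downregulated; gray, not called), with the median of each list as a black bar and that of all genes as a dotted line. The antagonists spread from 0.60 to 6.84, and *Dkk1* lies above every gene of the other lists.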

How the data were processed

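The authors mapped read pairs to mm9 with TopHat2 2.0.3, counted fragments per RefSeq gene with HTSeq 0.5.3p9, dropped genes under 10 fragments in total, and deposited a normalized signal per gene, the CPM on the effective library size of edgeR 3.6.1. Columns therefore sum to between 952151 and 1041166 CPM. All values were whole multiples of 1 fragment within 0.01 (100% in each library), so fragments were recovered. Libraries of a tissue differed beyond sampling noise (chi-square per degree of freedom of at least 12.4).

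The test was limma (3.58.1, R 4.3.3) with its trend option, applied to log2(CPM + 0.5) and adjusted by Benjamini-Hochberg over all 15280 genes. Its code was run on simulated data. There all genes had the same spread beyond sampling, mice did not differ, and no gene with few fragments was changed. The simulation therefore checks the working of the code only, and not the calls of genes with few fragments. The mouse number pairs the samples, since both tissues come from the same animal. Deviations of gland and tumor from their group means correlated with r = 0.107, 0.151 and 0.0168 in mice 11035, 11640 and 9232, over 14712 genes. A mouse term is not described in the methods, and the block was thus an alternative, as were edgeR 4.0.16 and DESeq2 1.42.0 on the recovered fragments. Positions and exon lengths are those of GENCODE vM1 (mm9), whereas fragments were counted on RefSeq models. No exon of an antagonist overlapped another gene of the table. Strand use in counting is not given in the sources used here.

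The antagonists and all lists were chosen with earlier results of these data known. On each pathway list, the 2 highest and 2 lowest genes by log2 fold change with a mean of at least 1 CPM and all Dickkopf partners are named, and of each marker list at most the most abundant gene and the one with the largest change. *Krt35* and *Hoxc13* were named after their values were seen.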

Additional observations from a re-analysis of the deposited data

How the results depend on the processing

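*Dkk1*, *Dkk2*, *Dkk3*, *Wif1* and *Frzb* kept their direction and their call in all 15 alternatives (pseudocount, filter, scaling, replicate block, edgeR or DESeq2 on recovered fragments, and leaving out each library), with log2 fold changes from 6.25 to 7.78, 4.89 to 5.57, 3.17 to 3.5998, 3.40 to 4.31 and 1.88 to 2.77. *Sfrp2* was called in 11 of 15. With the replicate block, which pairs the tissues of a mouse, *Sfrp4* was called with log2 fold changes of 1.84 (limma) and 1.70 (edgeR, adjusted p = 0.0191). The block changed no other call of an antagonist. Leaving out 1 library at a time, the values ran from 0.74 to 1.45 for *Sfrp2*, from 1.037 to 2.62 for *Sfrp4*, from 0.27 to 1.45 for *Sfrp1* and from -0.10 to 1.30 for *Dkkl1*, whose sign turned without M11035. *Wnt11* also turned, to -0.016 with pseudocount 1, -0.17 with edgeR, -0.19 with DESeq2 and -0.21 without T9232, and ran from -0.47 (without M11640) to 0.54 over the left-out libraries. *Atf3* was called without M9232 (log2 fold change 1.41, adjusted p = 0.00804, limma). The count of downregulated genes went from 1 to 0 on the R-spondin list without T11640 and on the feedback list without M11035, T11035 or T9232 (range 0 to 1 for both). The DEGs over all genes numbered 4309, and 3774 without T11640, the lowest count, of which 3675 were shared. *Dkk1* and *Frzb* in the glands rest on 10 and 17 fragments, which limits the precision of their fold changes.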

Other observations

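Among the other cell type markers, all 8 squamous epithelium markers were upregulated in the tumors, with sums of 13.8 to 15.9 CPM in the glands and 2271 to 3690 CPM in the tumors. Of 8 simple mammary epithelium markers, 4 were upregulated and 3 downregulated, and of 8 contractile cell markers 1 was upregulated and 3 were downregulated. Of 8 skeletal muscle, 6 endothelial and 6 Schwann cell markers, 2, 3 and 3 were downregulated and 0 were upregulated. Of 6 listed macrophage markers, 5 were in the table, with 1 downregulated. Of 6 listed melanocyte markers, 3 were in the table, with 0 called.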
